A study of Mus musculus with 6 samples.

Results

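Claudins are the membrane proteins that make up tight junction strands, and the 10 members measured here were Cldn1, Cldn2, Cldn3, Cldn4, Cldn5, Cldn7, Cldn8, Cldn10, Cldn16 and Cldn19. They were taken from the deposited count table by gene symbol because each is tied to a nephron segment, to the glomerular capsule or to endothelium, and they are 10 of 46603 genes in the table and 10 of 35 genes and pseudogenes with a claudin symbol. RNA-Seq had been carried out on CD11B+ cells, isolated with magnetic beads from whole digested kidneys of male mice, 10 to 12 weeks old, 3 days into recovery from bilateral IRI-AKI (28 minutes of clamping of both renal pedicles). The 3 PTEC DN RAR libraries came from PEPCK CRE+; Rosa26-LSL-RARaT403X mice, in which Cre under the PEPCK promoter acts in proximal tubular epithelial cells (PTECs) and switches on a dominant negative retinoic acid receptor. The 3 Cre- control libraries came from PEPCK CRE-; Rosa26-LSL-RARaT403X mice, which carry the same silent allele and had the same injury, so there was no uninjured group, and the count table has no row for the transgene itself. The comparison asks what differs in the bead-isolated kidney cells when retinoic acid signaling is blocked in PTECs. The libraries held from 29318041 to 46517005 counts on genes, 1 library per mouse.

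Each claudin spans the membrane and joins claudins of the neighboring cell, and the set of claudins in a segment fixes whether sodium, chloride, calcium, magnesium or water can pass between its cells. Cldn2 and one form of Cldn10 are pores of the leaky proximal tubule, Cldn16, Cldn19 and another form of Cldn10 set cation passage in the thick ascending limb, and Cldn3, Cldn4, Cldn7 and Cldn8 belong mainly to the tighter distal nephron and collecting duct. Cldn1 is found in the parietal cells that line the glomerular capsule and Cldn5 in endothelium, and CD11B marks macrophages, monocytes and other myeloid cells.

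Transcripts of all 10 claudins were detected in every library, and 7 of the 10 rose in PTEC DN RAR mice, namely Cldn1, Cldn2, Cldn5, Cldn8, Cldn10, Cldn16 and Cldn19. Cldn3, Cldn4 and Cldn7 did not pass the test, and 0 claudins fell. All 10 had passed the filter on low counts, and their median log2 fold change (PTEC DN RAR over Cre- control) was 1.30, against 0.04 over the 15440 genes tested. A gene was called when the Benjamini-Hochberg adjusted p of edgeR's quasi-likelihood test over all of these genes lay under 0.05, and by that rule 23.6% of genes were called higher and 17.1% lower. Every PTEC DN RAR library lay above every Cre- control library for 7 of the 10 claudins and for 29.2% of all genes tested. The claudins were chosen with earlier results of these data known, so their contrast with all genes is a description only. Levels are given as CPM (counts relative to the size of the library) after TMM scaling, and in bulk RNA more cells of a type cannot be told apart from more RNA per cell. The summed level of the 10 claudins was 152, 79.3 and 92.9 CPM in Cre- controls 1, 2 and 3 (the order kept for all values that follow), against 256, 230 and 330 CPM in PTEC DN RAR mice, so the groups did not overlap.

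**Figure D1:**
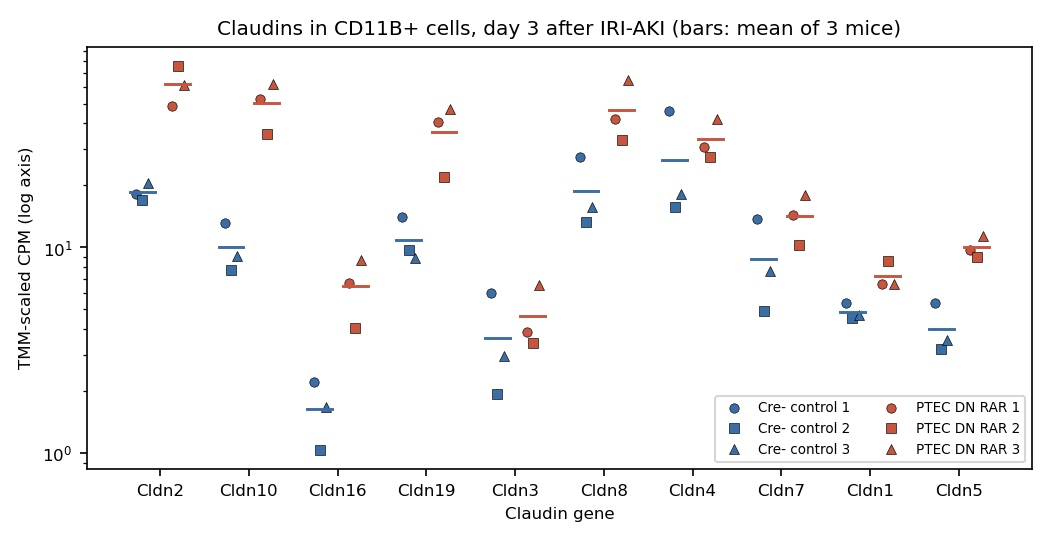
CPM after TMM scaling of each claudin in the 3 Cre- control and 3 PTEC DN RAR libraries, on a log axis, each point 1 library and each bar a group mean. The groups are apart for 7 claudins and overlap for Cldn3, Cldn4 and Cldn7. Cre- control library 1 is the highest control for every claudin except Cldn2.

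Cldn2, the cation and water pore of the proximal tubule, rose in PTEC DN RAR mice. It measured 18.1, 17.0 and 20.5 CPM in Cre- controls, against 48.6, 75.9 and 61.6 CPM in PTEC DN RAR mice. The controls lay close together (18.6 ± 1.77 CPM, SD, n = 3) and every PTEC DN RAR library was above them (62 ± 13.7 CPM, SD, n = 3), with PTEC DN RAR library 2 the highest. The log2 fold change was 1.74 (its standard error, SE, being 0.16, edgeR adjusted p = 0.000257). Each SE of an edgeR change was derived, as the absolute log2 fold change divided by the square root of the test's F statistic. The gene (ENSMUSG00000047230) lies on the plus strand of chromosome X of GRCm38 from 139800828 to 139811386. Its promoter is shown because Cldn2 was the 1 claudin of 9 with a RefSeq promoter entry whose window holds the letters of a TATA box. The 250 bases before the RefSeq start (chrX:139800558-139800807, plus strand, GRCm38.p6) read 5′ to 3′ as follows, with capitals marking TATAAA, whose first base is at position -35 from the start:
Cldn2: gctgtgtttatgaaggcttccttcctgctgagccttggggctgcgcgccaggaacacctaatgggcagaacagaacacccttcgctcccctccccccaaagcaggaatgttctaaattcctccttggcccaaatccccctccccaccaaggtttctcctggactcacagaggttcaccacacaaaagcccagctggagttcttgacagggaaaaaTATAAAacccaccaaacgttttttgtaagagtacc
TATAAA on the given strand was present in 8.32% of 32851 mouse promoter windows of the same length (250 bases before to 50 after the start), and a match is a description of the letters only.

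Cldn10, whose alternative first exons give an anion pore in the proximal tubule and a cation pore in the thick ascending limb, had the largest fold change of the 10. It measured 13.2, 7.75 and 9.09 CPM in Cre- controls, against 52.8, 35.8 and 62.4 CPM in PTEC DN RAR mice, from 231 counts upward. The lowest PTEC DN RAR library was library 2, the library in which Cldn2 was highest, and the groups did not overlap. The means were 10.0 ± 2.85 and 50.3 ± 13.5 CPM (SD, n = 3 each), and the fitted change was 2.32 on the log2 scale (SE 0.25, edgeR adjusted p = 0.000386). The gene (ENSMUSG00000022132, plus strand of chromosome 14 from 118787908 to 118875489) has 3 transcripts in GENCODE M21 that begin in 2 regions, and the counts merge them, so the forms were not separated. The promoters of both regions are shown because either could serve the transcripts counted, and capitals mark the letters of GTTAAT (an HNF1 half-site) on either strand, which here lie on the minus strand with the first base at position -15. The upstream window is chr14:118787621-118787870 and the downstream window chr14:118854700-118854949, both 250 bases on the plus strand of GRCm38.p6 before a RefSeq start:
Cldn10 upstream start: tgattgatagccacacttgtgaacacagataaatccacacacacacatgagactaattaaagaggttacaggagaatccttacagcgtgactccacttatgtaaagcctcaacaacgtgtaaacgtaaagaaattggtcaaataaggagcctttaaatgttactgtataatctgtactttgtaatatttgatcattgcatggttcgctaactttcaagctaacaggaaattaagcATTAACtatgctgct
Cldn10 downstream start: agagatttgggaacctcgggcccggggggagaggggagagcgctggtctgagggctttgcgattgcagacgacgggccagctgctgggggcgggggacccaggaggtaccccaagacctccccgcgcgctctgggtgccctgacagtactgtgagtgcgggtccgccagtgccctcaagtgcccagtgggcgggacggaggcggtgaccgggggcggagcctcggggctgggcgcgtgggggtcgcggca
The downstream window had no capitals, that is, none of the 3 motifs searched (TATAAA on the given strand, GTTAAT and AGGTCA on both), and GTTAAT was present in 7.1% of all promoter windows and in 2 of the 12 claudin entries (Cldn1 and Cldn10).

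Cldn16 and Cldn19, partners in the strands through which magnesium and calcium are reabsorbed in the thick ascending limb, both rose. Cldn16 measured 2.23, 1.04 and 1.68 CPM in Cre- controls, against 6.74, 4.05 and 8.73 CPM in PTEC DN RAR mice (1.65 ± 0.595 and 6.51 ± 2.35 CPM, SD, n = 3 each). These values rest on 31 to 87 counts in controls and 172 to 412 in PTEC DN RAR libraries, and the log2 fold change was 1.97 (SE 0.35, edgeR adjusted p = 0.00312). Cldn19 measured 14.1, 9.76 and 8.93 CPM in Cre- controls, against 40.5, 22.0 and 47.2 CPM in PTEC DN RAR mice (10.9 ± 2.77 and 36.5 ± 13.0 CPM, SD, n = 3 each). Its log2 fold change was 1.74 (SE 0.28, edgeR adjusted p = 0.00223). For both, as for Cldn10, PTEC DN RAR library 2 was the lowest of its group and still above every control. Cldn16 (ENSMUSG00000038148) lies on chromosome 16 from 26463135 to 26482765 and Cldn19 (ENSMUSG00000066058) on chromosome 4 from 119255414 to 119262438, both on the plus strand. Exons of Cldn19 overlap the antisense gene Gm12927 by 90 bases, and whether counting used strand is not given in the sources used here, while Gm12927 itself had 2 to 18 counts per library beside at least 282 for Cldn19.

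Of the 4 claudins of the distal nephron and collecting duct, Cldn8 rose and Cldn3, Cldn4 and Cldn7 were not called. Cldn8, a barrier claudin that brings Cldn4 to the junction, measured 27.5, 13.4 and 15.7 CPM in Cre- controls, against 41.9, 33.1 and 64.9 CPM in PTEC DN RAR mice. The groups were apart (18.8 ± 7.57 and 46.6 ± 16.4 CPM, SD, n = 3 each), and the log2 change was 1.30 (SE 0.31, edgeR adjusted p = 0.0105). Cldn8 (ENSMUSG00000050520) is a single-exon gene on the minus strand of chromosome 16 from 88560828 to 88563183.

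Cldn4, a claudin of the collecting duct, measured 46.0, 15.7 and 18.2 CPM in Cre- controls, against 30.8, 27.6 and 42.2 CPM in PTEC DN RAR mice. Cre- control library 1 held the highest value of all 6 and the other controls the lowest, so the groups overlapped, with means of 26.6 ± 16.8 and 33.6 ± 7.69 CPM (SD, n = 3 each). The log2 fold change was 0.33 (SE 0.37, edgeR adjusted p = 0.508), and without Cre- control library 1 it was 0.98 (adjusted p = 0.00628, range over 14 alternatives 0.00628 to 0.969). It was 0.02 without Cre- control library 2, 0.07 without Cre- control library 3 and 0.09 without PTEC DN RAR library 3. Cldn4 (ENSMUSG00000047501) is a single-exon gene on the minus strand of chromosome 5 from 134945119 to 134946934. Its promoter is shown because it holds AGGTCA, the half-site that nuclear receptors including RAR bind, in capitals as its minus-strand letters with the first base at position -217 (chr5:134946935-134947184, minus strand, GRCm38.p6, 250 bases before the RefSeq start):
Cldn4: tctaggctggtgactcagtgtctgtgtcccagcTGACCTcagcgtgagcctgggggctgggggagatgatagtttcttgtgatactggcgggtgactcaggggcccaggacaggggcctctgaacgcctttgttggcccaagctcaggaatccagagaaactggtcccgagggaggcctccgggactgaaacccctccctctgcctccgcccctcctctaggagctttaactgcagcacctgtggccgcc
AGGTCA on either strand was present in 16.3% of all promoter windows and in 3 of the 12 claudin entries, this one and both of Cldn7. These letters say nothing of whether a receptor binds there.

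Cldn7, found on the lateral membrane of distal and collecting duct cells, measured 13.8, 4.93 and 7.70 CPM in Cre- controls, against 14.3, 10.3 and 18.0 CPM in PTEC DN RAR mice. Again Cre- control library 1 overlapped the PTEC DN RAR libraries, and the means were 8.80 ± 4.53 and 14.2 ± 3.84 CPM (SD, n = 3 each). The log2 fold change was 0.68 (SE 0.35, edgeR adjusted p = 0.147). Without Cre- control library 1 it was 1.16 (adjusted p = 0.0143), the range of adjusted p over 14 alternatives being 0.0143 to 0.400, whereas it was 0.36 without Cre- control library 2 and 0.43 without PTEC DN RAR library 3. Cldn7 (ENSMUSG00000018569) lies on the plus strand of chromosome 11 from 69964779 to 69967885.

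Cldn3, a sealing claudin present from the thick ascending limb onward, measured 6.0, 1.95 and 2.98 CPM in Cre- controls, against 3.89, 3.44 and 6.59 CPM in PTEC DN RAR mice. The groups overlapped (3.64 ± 2.10 and 4.64 ± 1.70 CPM, SD, n = 3 each), and its log2 fold change of 0.34 (SE 0.41, edgeR adjusted p = 0.531) became -0.04 without PTEC DN RAR library 3 and 0.91 (adjusted p = 0.0693, range over 14 alternatives 0.0693 to 0.994) without Cre- control library 1. Cldn3 (ENSMUSG00000070473), a single-exon gene on the plus strand of chromosome 5 from 134986214 to 134987472, shares 40 bases with the antisense gene Wbscr25, which had 0 to 1 counts per library.

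Outside the tubule, Cldn1 and Cldn5 both rose. Cldn1, the claudin of the capsule's parietal cells, measured 5.35, 4.56 and 4.69 CPM in Cre- controls, against 6.64, 8.58 and 6.61 CPM in PTEC DN RAR mice (4.87 ± 0.425 and 7.28 ± 1.13 CPM, SD, n = 3 each). The log2 change of 0.58 (SE 0.17, edgeR adjusted p = 0.0239) was the smallest among the 7 that were called, and it was no longer called without Cre- control library 2 (0.49, adjusted p = 0.0892), Cre- control library 3 (0.50, adjusted p = 0.104) or PTEC DN RAR library 2 (0.44, adjusted p = 0.0812). Cldn1 (ENSMUSG00000022512) lies on the minus strand of chromosome 16 from 26356642 to 26371841.

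Cldn5, the main claudin of endothelial tight junctions, measured 5.35, 3.22 and 3.55 CPM in Cre- controls, against 9.70, 8.96 and 11.4 CPM in PTEC DN RAR mice (4.04 ± 1.15 and 10.0 ± 1.24 CPM, SD, n = 3 each). The groups were apart, and the log2 change was 1.30 (SE 0.21, edgeR adjusted p = 0.00224). Cldn5 (ENSMUSG00000041378) is a single-exon gene on the plus strand of chromosome 16 from 18776847 to 18778262.

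Marker genes of most kidney cell types listed rose in the same libraries. All 16 proximal tubule, 10 thick ascending limb, 5 distal convoluted tubule, 6 intercalated cell and 12 endothelial markers rose, as did 4 of 6 podocyte markers, while 1 of 8 principal cell markers did (Aqp3, named after its value was seen). On leaving out 1 library, 5 to 6 intercalated cell, 11 to 12 endothelial and 3 to 5 podocyte markers were called higher. The proximal tubule, thick ascending limb and distal convoluted tubule counts did not change. The summed proximal tubule markers ranged from 688 to 935 CPM in controls and from 2139 to 3315 CPM in PTEC DN RAR libraries, and those of the thick ascending limb from 1284 to 1750 and from 4891 to 9262 CPM. The summed distal convoluted tubule markers ranged from 149 to 185 and from 650 to 1140 CPM, the intercalated cell markers from 52.3 to 123 and from 169 to 373 CPM, and the endothelial markers from 88.8 to 132 and from 277 to 346 CPM. The podocyte sums (153 to 186 and 262 to 287 CPM) were also apart, whereas the principal cell sums (103 to 280 and 192 to 440 CPM) overlapped. No defining marker of any list was at 0 in a library, and the part of these cells in the claudin changes was not tested.

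The 2 markers with the highest CPM of each list showed the same split. In the proximal tubule list, the phosphate transporter gene Slc34a1 rose by a log2 fold change of 2.07 and Kap by 1.18. In the thick ascending limb list, Umod (uromodulin) rose by 2.10 and Egf by 3.15, and in the distal convoluted tubule list the thiazide-sensitive cotransporter gene Slc12a3 rose by 2.35 and Calb1 by 2.46. In the intercalated cell list, Slc26a4 (pendrin) rose by 1.73 and Aqp6 by 1.63. Aqp2, the vasopressin-regulated water channel, and Hsd11b2, which inactivates glucocorticoids, had log2 fold changes of 0.63 and 0.65 in the principal cell list and were not called. In the podocyte list Podxl rose by 1.45 and Ptpro (0.15) was not called. The endothelial receptors Ptprb and Kdr both rose, from 23.0 to 70.3 and from 16.8 to 42.5 CPM. The number of principal cell markers called depended on single libraries, with 4 without Cre- control library 1 and 0 without Cre- control library 2, Cre- control library 3 or PTEC DN RAR library 3. The mean log2 CPM of that list was 4.44 in Cre- control library 1, against 3.18 and 3.70 in the other controls, while PTEC DN RAR mice had 4.55, 3.93 and 5.13.

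Markers of the sorted cells were present in every library. The 10 markers of CD11B+ macrophages and monocytes summed to 28330 to 30780 CPM in controls and 23210 to 26100 CPM in PTEC DN RAR libraries, and 4 of them fell (Itgam, Cd68, Lyz2 and Fcgr3) with 0 higher. Lyz2, the lysozyme of myeloid cells, fell from 12810 to 7746 CPM (log2 fold change -0.73), and Csf1r, the receptor for CSF1, measured 3406 and 3363 CPM (log2 fold change -0.02, not called). When the libraries were scaled on 26 pan-leukocyte genes in place of TMM, the median over all genes went up from 0.04 to 0.26 (log2), and 5071 genes were higher and 693 lower in place of 3640 and 2636. The mean difference of the CD11B+ markers then moved from -0.20 to 0.02, 3 of those 10 markers were called higher in place of 0, and the same 7 claudins were called, with log2 fold changes from 0.80 (Cldn1) to 2.56 (Cldn10).

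**Figure D2:**
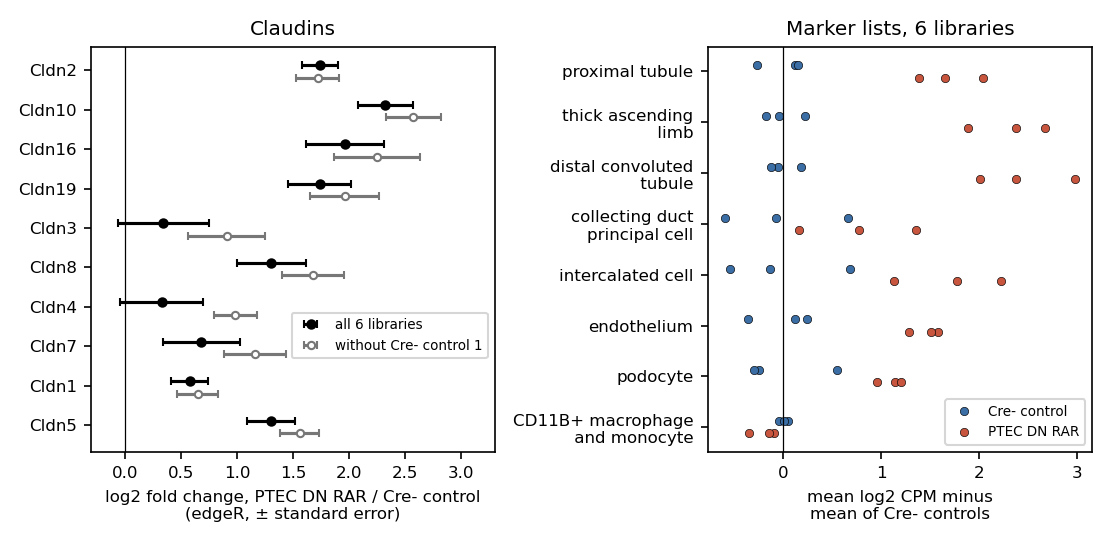
Left, log2 fold change of each claudin with its standard error in all 6 libraries (filled) and without Cre- control library 1 (open), and right, mean log2 CPM of each marker list in every library minus the mean of the controls. With all libraries the called claudins run from 0.58 (Cldn1) to 2.32 (Cldn10), and all marker lists of epithelium and endothelium except that of principal cells are apart between the groups.

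To compare each claudin with its own segment, its log2 CPM was set against the mean log2 CPM of the segment's markers in the same library, which gave 13 claudin and segment pairs tested with two-sided exact permutation tests (smallest p with 3 mice against 3 of 0.1, so no pair could reach 0.05). The differences (PTEC DN RAR minus Cre- control, log2) ran from -2.01 to 0.63, with adjusted p from 0.26 to 1.0. Cldn2 stood at -1.10, -0.80 and -0.95 relative to the proximal tubule list in controls, against -0.95, -0.96 and -0.88 in PTEC DN RAR mice, a difference of 0.02 (exact permutation p = 0.9, adjusted p = 1.0 over the 13 pairs), which stayed between -0.05 and 0.10 when any 1 library was left out. Cldn10 differed from the thick ascending limb list by 0.01 (exact permutation p = 1.0, -0.07 to 0.12 on leaving out 1 library), and by 0.28 with the median over the markers in place of the mean. Against the proximal tubule list Cldn10 differed by 0.63 (exact permutation p = 0.3, adjusted p = 0.433, 0.42 to 1.03 on leaving out 1 library), with PTEC DN RAR library 2 at -2.04 beside -0.83 and -0.86 in the other 2 libraries.

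Cldn19 lay lower against the thick ascending limb list in every PTEC DN RAR library (-2.53, -2.92 and -2.60) than in any control (-1.89, -2.02 and -2.27), a difference of -0.62 (exact permutation p = 0.1, adjusted p = 0.26), or -0.35 with the median over the markers. Cldn16 differed by -0.37 with overlapping values (exact permutation p = 0.3, adjusted p = 0.433), from -0.57 to -0.24 on leaving out 1 library and by -0.10 with the median over the markers. Cldn3 lay furthest behind, by -1.87 against the thick ascending limb list and by -2.01 against the distal convoluted tubule list, with no overlap in either (exact permutation p = 0.1, adjusted p = 0.26 for each, the distal convoluted tubule value being -1.52 with the median over the markers), and by -0.32 against the principal cell list, where the groups overlapped (exact permutation p = 0.2, adjusted p = 0.433).

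Cldn8 lay between its 2 segments. Its difference was -1.13 against the distal convoluted tubule list, with no overlap (-0.64 with the median over the markers), and 0.56 against the principal cell list, where all PTEC DN RAR libraries (0.84, 1.12 and 0.89) exceeded all controls (0.34, 0.56 and 0.27; exact permutation p = 0.1, adjusted p = 0.26 for each). For Cldn4 and Cldn7 against the principal cell list the groups overlapped, with differences of -0.28 (exact permutation p = 0.3, -0.46 to -0.13 on leaving out 1 library) and 0.01 (exact permutation p = 1.0, -0.08 to 0.12 on leaving out 1 library). Cldn5 differed from the endothelial list by -0.13 (exact permutation p = 0.6, -0.34 to 0.00 on leaving out 1 library).

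**Figure D3:**
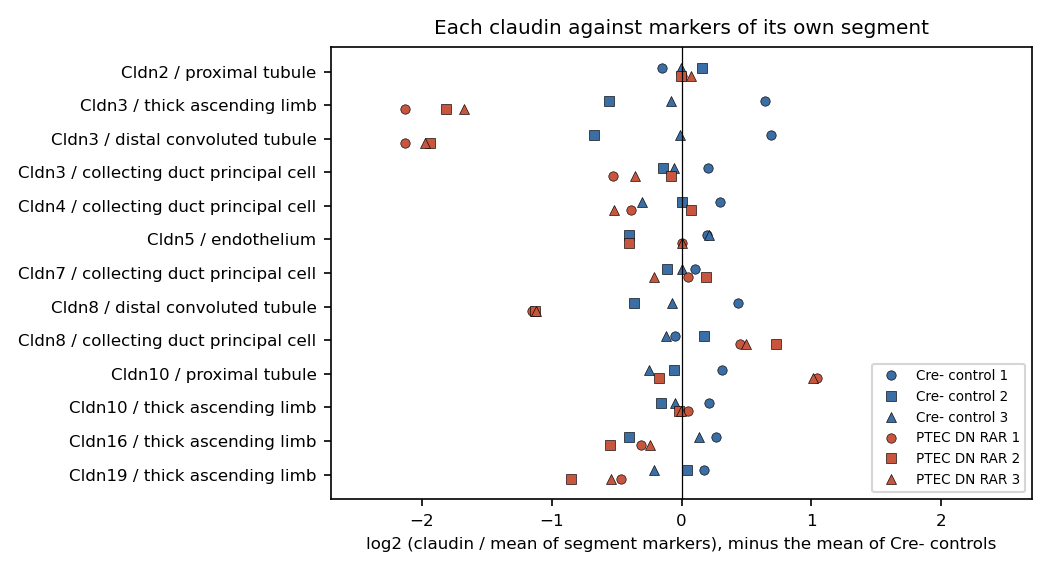
Log2 CPM of each claudin minus the mean log2 CPM of its segment's markers, per library and relative to the mean of the controls, for the 13 pairs. Cldn2 against the proximal tubule and Cldn10 against the thick ascending limb differ by 0.02 and 0.01 with the mean over markers (0.28 for Cldn10 with the median), while Cldn3 against the distal convoluted tubule differs by -2.01.

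Claudins were also set against each other in the same library, in 9 pairs chosen after their values were seen (adjusted p from 0.18 to 0.6). The ratios of Cldn8 to Cldn4 and to Cldn7 exceeded those of every control in each PTEC DN RAR library, by 0.84 and 0.55 on the log2 scale (exact permutation p = 0.1, adjusted p = 0.18 over the 9 pairs, for each). The Cldn16 to Cldn19 ratio of the thick ascending limb partners differed by 0.25 (exact permutation p = 0.4, 0.03 to 0.42 on leaving out 1 library), and the Cldn10 to Cldn2 ratio by 0.60 with overlap (exact permutation p = 0.2, adjusted p = 0.257, 0.38 to 0.99 on leaving out 1 library). Position on the chromosome gave contrasting cases. Cldn4 and Cldn3 lie 39279 bases apart on chromosome 5, and their ratio differed by 0.04 (exact permutation p = 0.6, -0.08 to 0.14 on leaving out 1 library). Cldn1 and Cldn16 lie 91293 bases apart on chromosome 16, and the Cldn16 to Cldn1 ratio in each PTEC DN RAR library exceeded that of every control, by 1.37 (exact permutation p = 0.1, adjusted p = 0.18).

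Levels between genes were compared as RPKM, which divides CPM by the exon length in kilobases. In controls Cldn4 was the highest at 14.7 ± 9.27 RPKM (SD, n = 3), followed by Cldn8 (7.99), Cldn2 (5.58), Cldn7 (4.52), Cldn10 (3.87), Cldn3 (2.89), Cldn5 (2.85), Cldn19 (2.56), Cldn16 (1.41) and Cldn1 (1.01). Among neighbors in this order, only Cldn19 and Cldn16 did not overlap across the control libraries. In PTEC DN RAR mice the order became Cldn8 (19.8 ± 6.96 RPKM, SD, n = 3), Cldn10 (19.4), Cldn2 (18.7), Cldn4 (18.5), Cldn19 (8.57), Cldn7 (7.28), Cldn5 (7.07), Cldn16 (5.55), Cldn3 (3.69) and Cldn1 (1.5), and only the steps from Cldn4 to Cldn19 and from Cldn3 to Cldn1 were free of overlap. With the longest transcript as length 5 of the 10 kept their place, and Cldn10 (23.65) and Cldn2 (20.38) then stood above Cldn8 (19.79).

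As shares of the summed RPKM of the 10 claudins, Cldn4 took 36.5%, 26.2% and 25.3% in controls 1, 2 and 3, against 16.4%, 16.8% and 17.1% in PTEC DN RAR mice, so its share was smaller in every PTEC DN RAR library although its level was not called. The shares of Cldn3 (5.84% to 3.29%) and Cldn7 (9.28% to 6.57%) were also smaller without overlap. The share of Cldn10 went from 8.43% to 17.6% and that of Cldn16 from 3.01% to 4.95%, again without overlap (exact permutation p = 0.1 for each of these 5 shares, the smallest that 3 mice against 3 allow, and p = 0.2 after adjustment over the 10 shares). The shares of Cldn1, Cldn2, Cldn5, Cldn8 and Cldn19 overlapped.

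**Figure D4:**
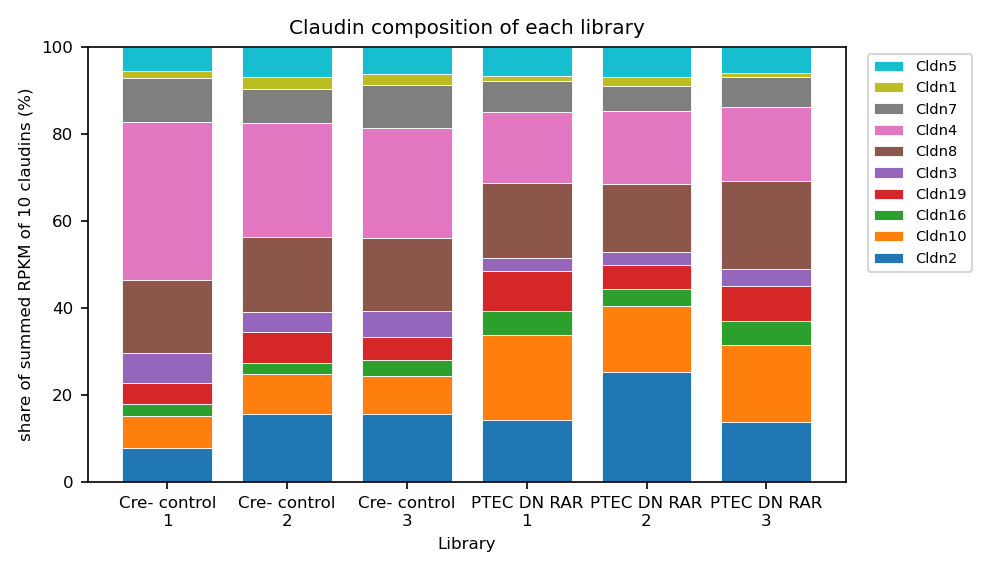
Share (%) of the summed RPKM of the 10 claudins taken by each claudin, per library. Cldn4 has a mean of 29.3% in the 3 Cre- control libraries and of 16.8% in the 3 PTEC DN RAR libraries, and Cldn10 goes from 8.43% to 17.6%.

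Of the 25 other claudin genes and pseudogenes in the table, 13 had 0 counts in every library, 9 had reads but did not pass the filter (at most 14 counts in a library) and 3 were tested. Both of those with at least 1 CPM rose. Cldn12, a claudin of many epithelia, went from 8.14 ± 1.03 to 18.9 ± 2.93 CPM (SD, n = 3 each), a change of 1.21 on the log2 scale (SE 0.16, edgeR adjusted p = 0.000813). Cldn15, a cation pore best known from the intestine, went from 2.15 ± 0.678 to 5.16 ± 0.320 CPM (SD, n = 3 each), 1.25 on the log2 scale (SE 0.24, edgeR adjusted p = 0.00408).

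Most partner genes of the tight junction rose as well. Of 10 other transmembrane proteins of the junction 9 rose and 1 (Lsr) did not pass, and of 16 plaque and polarity proteins 11 rose, 1 fell and 4 did not pass. Over both lists, 20 of 26 rose with a median log2 fold change of 0.96. Ocln, the gene for occludin, went from 4.32 to 11.9 CPM (log2 fold change 1.46, edgeR adjusted p = 0.00246). The largest changes among transmembrane proteins were in Ildr2 (1.69) and Ildr1 (1.66), angulins that mark the corners where 3 cells meet, with Ocln next. Among plaque and polarity proteins they were in Pard6b (1.63), a polarity adaptor, Cgnl1 (1.51), which encodes paracingulin, and Crb3 (1.34), an apical polarity protein. Tjp1, the gene for the scaffold ZO-1, went from 12.6 to 24.8 CPM (log2 fold change 0.98).

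Ybx3, a Y-box factor that binds ZO-1, was the 1 gene of these lists that fell (-0.24, edgeR adjusted p = 0.0496), and its call was lost in 11 of 14 alternatives (adjusted p from 0.0160 to 0.970). Among 8 regulators of claudins and of paracellular transport, 7 rose and 1 fell, and from 5 to 7 rose over the 14 alternatives. Ephb1, counted among those that rose, had a mean of 0.435 CPM, overlapping groups and an edgeR adjusted p of 0.0483. The kinase gene Wnk4 (2.46) and Klhl3 (2.39), which encodes the adaptor that targets WNK kinases for degradation, changed most. Cul3, the scaffold of the same ubiquitin ligase, fell from 95.0 to 74.8 CPM (-0.34, edgeR adjusted p = 0.0320), a call lost in 6 of 14 alternatives (adjusted p from 0.00824 to 0.566). Lsr, Ybx3, Ephb1, Wnk4, Klhl3 and Cul3 were singled out after their values were seen.

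**Figure D5:**
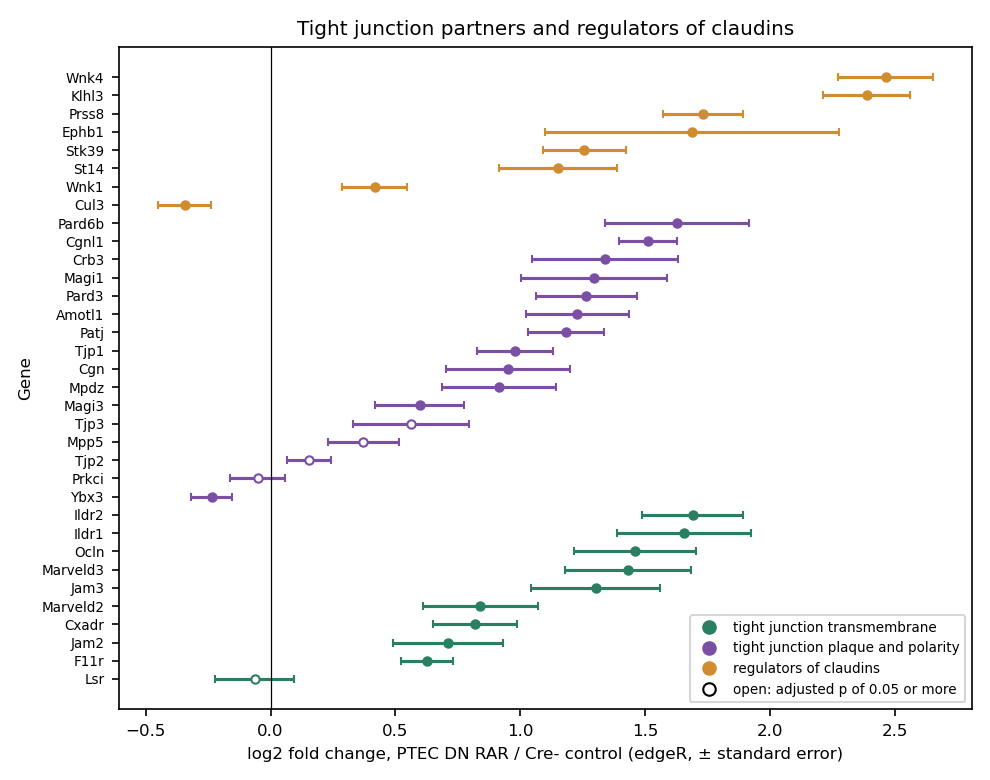
Log2 fold changes (PTEC DN RAR over Cre- control) with standard errors for the partner genes of the tight junction and the regulators of claudins. Of 26 junction genes 20 are called higher, with a median of 0.96, and Ybx3 (-0.24) is the 1 called lower.

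Profiles over the 6 libraries were compared by the root mean square difference of log2 CPM, each profile centered on its control mean, among 13021 tested genes with a mean of at least 1 CPM, for the 3 claudins with the highest mean CPM. The genes nearest to Cldn2 were Sema6a (0.07), Glyat (0.07) and Mgat3 (0.08). Those near to Cldn8 included Shroom3 (0.03) and Rtkn (0.08), and those nearest to Cldn10 were Bsnd (0.12), Irx3 (0.13) and Chchd10 (0.13).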

How the data were processed

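RNA-Seq of polyA RNA from kidney CD11B+ cells was measured in 6 libraries, 3 per genotype as labelled, each from its own mouse. The authors deposited 1 table of raw counts, reads per Ensembl identifier with no normalization. The submitters' processing notes name STAR 2.5.0a, HTSeq 0.6.1, edgeR, limma and GRCm38, while the annotation release and the strand setting are not given in the sources used here. Reads aligned to more than 1 place (42.9% to 47.8% per library) had been left out of the gene counts, and 0 of the 50-base windows of 9 claudins are shared with another gene (0.985% for Cldn19, all with Gm12927). Of 46612 lines, 9 repeated an identifier and were collapsed, and 46091 of the remaining 46603 genes are in GENCODE M21, the source of coordinates and exon lengths. Within each genotype no library was a repeat of another (chi-square per degree of freedom at least 29.6), and pairs across genotypes were not checked. At these depths 3 counts equal 0.0645 to 0.102 CPM, a floor that covers counting error only.

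After filterByExpr and TMM scaling, 15440 genes were tested over all 6 libraries by the quasi-likelihood functions of edgeR 4.0.16 (R 4.3.3), and p-values were adjusted over them by Benjamini-Hochberg. Marker lists, ratios and shares used log2 CPM with a prior count of 2 or RPKM, with two-sided exact permutation tests. Promoters are RefSeq's (12 entries for 9 claudins, the exception being Cldn8). Alternatives used limma 3.58.1 (voom), DESeq2 1.42.0, other filters and scalings, a replicate block, a prior count of 0.25 and leaving out each library, and the fits were tested on simulated data. The comparisons of claudins with each other, the shares and the counts of markers per setting were added after the values were seen. The claudins, marker lists and tight junction lists were chosen with earlier results of these data known. Genes named by rule are the 10 claudins, other claudins with a mean of at least 1 CPM or an adjusted p under 0.05, the 3 called genes with the largest change per tight junction list plus Ocln and Tjp1, the 2 markers of highest mean CPM per list, and the 3 most alike genes for each of the 3 claudins with the highest mean CPM. A gene that the rule names is not reported here.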

Additional observations from a re-analysis of the deposited data

How the results depend on the processing

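Fold changes of Cldn2, Cldn5, Cldn8, Cldn10, Cldn16 and Cldn19 kept direction and call in all 14 alternatives, and the same 7 claudins were called with DESeq2, voom, the other filters and the other scalings. Leaving out 1 library gave 6 to 9 claudins (9 without Cre- control library 1, which added Cldn4 and Cldn7, and 6, without Cldn1, on leaving out Cre- control library 2, Cre- control library 3 or PTEC DN RAR library 2). Cldn3 ranged from -0.0436, without PTEC DN RAR library 3, to 0.91, without Cre- control library 1. With a replicate block 8 claudins were called, Cldn7 being added (0.77, adjusted p = 0.0488 from edgeR). Deviations of same-numbered libraries from their group means correlated at -0.02, 0.21 and 0.03 across genes, so the numbers were not taken to pair mice. Pan-leukocyte scaling gave 693 genes lower and a difference of 0.0244 in the CD11B+ markers. The count of tight junction partner genes lower was 0 with voom, no filter, library size, at least 10 counts per library, pan-leukocyte scaling and the replicate block (0 to 1 on leaving out 1 library), and that of regulators lower was 0 with library size or pan-leukocyte scaling (0 to 1). With the median over markers the differences were -1.52 for Cldn3 and -0.64 for Cldn8 against the distal convoluted tubule and 0.28 for Cldn10 and -0.35 for Cldn19 against the thick ascending limb. The cause of these shifts was not tested. With 3 mice per group no exact test could go below 0.1, and Cldn3, Cldn5 and Cldn16 had 58, 96 and 31 counts in Cre- control library 2, their lowest.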
